A study of Mus musculus with 11 samples.

Results

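Targets of the liver X receptor and genes of cholesterol export are described here through 8 mouse genes, chosen by name: Nr1h2, Abca1, Abcg1, Mylip, Arl4c, Srebf1, Npc1 and Npc2. The choice was made with earlier results of these data known. All 8 were found in the deposited expression table of 25562 genes. RNA was measured in 11 bulk libraries of splenic CD8+ T cells from C57BL/6 mice. There were 4 libraries of cells given recombinant human acyloxyacyl hydrolase (AOAH, a lipase that removes fatty acyl chains from lipids) at 10 µg/mL, together with the ethanol control. Another 3 libraries came from cells given the phosphatidylcholine PC16:0-20:4 (PC) at 60 µM in PBS with 10% glycerol, and 4 vehicle libraries from cells given that buffer and ethanol. All groups had a 22 h pretreatment and a 24 h activation through CD3 and CD28, with antibodies at 1 µg/mL and 0.5 µg/mL. The labels disagree on whether AOAH was present during pretreatment or during activation, on plate-bound antibody or beads, and on added interleukin-2. The buffer of the AOAH protein itself is not stated in the labels, so an effect of AOAH and one of its buffer cannot be told apart. In bulk RNA, fewer cells of a type and less RNA per cell cannot be told apart.

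Liver X receptors (LXR) are nuclear receptors that pair with retinoid X receptors and are switched on by oxysterols, the oxidised forms of cholesterol that build up when a cell holds much sterol. Active LXR raises genes that move cholesterol out of the cell and limit its uptake. In T cells LXRβ, the product of Nr1h2, is the main form, and LXR signalling is known to restrain their proliferation. The SREBP system works the other way: low sterol in the endoplasmic reticulum releases SREBP proteins, which turn on sterol synthesis and lipoprotein uptake.

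Most of these transcripts were lower with AOAH and a pair were higher with PC. With AOAH, Arl4c, Mylip, Abcg1, Npc2 and Nr1h2 fell, Abca1 also fell when genes of very low level were kept, and no member rose. With PC, Arl4c and Nr1h2 rose and no member fell. Over all genes that averaged 1 TPM or more, 12.1% were lower and 13.1% higher with AOAH. With PC, 8.27% of such genes were higher and 11.2% lower. Srebf1 and Npc1 did not pass the test in any of the 3 comparisons. Levels are TPM, the length-corrected share of a transcript in its library, and changes are differences of log2(TPM + 1), tested with limma and adjusted over all genes by Benjamini-Hochberg at 0.05.

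Promoters of the members are shown because LXR acts by binding DNA at a direct repeat called DR4, in which AGGTCA occurs in a pair with 4 bases between. RefSeq promoter windows of GRCm38.p6, from 250 bases before to 50 bases after a transcript start, were found for 6 of the 8 members, in 8 windows. Abcg1 and Npc1 were not among them. Srebf1 had several of the windows, so counts of windows are not counts of genes. The 250 upstream bases are given for the windows closest to the repeat, 5′ to 3′ on the gene's strand, with the pair of half-sites in capitals. They lie at chr4:53159896-53160145 (minus strand) for Abca1, chr1:88702192-88702441 (minus strand) for Arl4c and chr11:60210472-60210721 (minus strand) for Srebf1.
Abca1: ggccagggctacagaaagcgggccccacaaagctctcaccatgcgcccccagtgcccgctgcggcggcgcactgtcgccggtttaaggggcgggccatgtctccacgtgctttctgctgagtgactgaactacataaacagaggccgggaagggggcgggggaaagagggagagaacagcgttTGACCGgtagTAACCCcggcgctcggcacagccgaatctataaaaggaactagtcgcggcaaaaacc
Arl4c: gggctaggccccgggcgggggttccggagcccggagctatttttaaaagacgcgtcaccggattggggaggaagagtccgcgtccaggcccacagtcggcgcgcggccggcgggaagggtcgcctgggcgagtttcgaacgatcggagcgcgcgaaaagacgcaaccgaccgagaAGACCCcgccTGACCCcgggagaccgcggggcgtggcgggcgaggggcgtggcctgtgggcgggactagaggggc
Srebf1: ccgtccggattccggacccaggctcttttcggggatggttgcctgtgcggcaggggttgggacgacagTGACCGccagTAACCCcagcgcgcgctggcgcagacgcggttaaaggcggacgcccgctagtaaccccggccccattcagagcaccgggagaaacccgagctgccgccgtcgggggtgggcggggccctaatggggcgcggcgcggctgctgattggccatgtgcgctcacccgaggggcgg
Read on the opposite strand, the closest matches are these.
Abca1: GGGTTActacCGGTCA
Arl4c: GGGTCAggcgGGGTCT
Srebf1: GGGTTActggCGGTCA

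Each of these differs from the repeat, searched on both strands as AGGTCA, 4 free bases and AGGTCA, at 3 of the 12 fixed bases. The match begins 67 bases before the start in Abca1, 75 before in Arl4c and 182 before in Srebf1. By this score alone, 21.9% of 32851 RefSeq mouse promoters of the same length held a match with at most 3 mismatches, and 3 of the 8 member windows did. No member window held a match with at most 2 mismatches, which 3.02% of all promoters did, or with at most 1, which 0.25% did. The planned limit was 2 mismatches, and the limit of 3, which the windows shown here meet, was not planned. The single half-site AGGTCA, a piece of that repeat, was in none of the 8 windows and in 16.3% of all promoters. The sterol response element bound by SREBP, with at most 1 mismatch, was in none of the 8 windows and in 1.95% of promoters. GGGCGG, the GC box bound by Sp proteins, was in 6 of the 8 windows and in 35.7% of promoters, and the E-box CACGTG was in 1, that of Abca1, and in 7.15%. Of the 2 genes with DR4-like letters that passed the filter on level, Arl4c fell with AOAH and rose with PC while Srebf1 passed neither test. The other Srebf1 windows had 4 mismatches at best. The level of Srebf1 is that of the whole gene and does not tell which start was used. A match in letters, or the share of promoters that hold one, does not tell whether a given site is bound. No binding was measured.

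The order of levels was much the same in the 3 groups. Npc2 was the highest member, at 82.1 ± 4.05 TPM in AOAH, 99.6 ± 2.53 TPM in PC and 100.2 ± 1.47 TPM in vehicle libraries (SD, n = 4, 3 and 4). Nr1h2 came next and Srebf1 after it in each group, and Abca1 was the lowest member in each group, at 0.285 ± 0.0404 TPM in AOAH, 0.577 ± 0.153 TPM in PC and 0.675 ± 0.0985 TPM in vehicle libraries. In AOAH libraries the ranges of Abcg1 and Mylip overlapped, and in PC libraries those of Srebf1 and Arl4c did. All other neighbours in the order, those of the vehicle group included, had ranges that did not overlap.

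**Figure D1:**
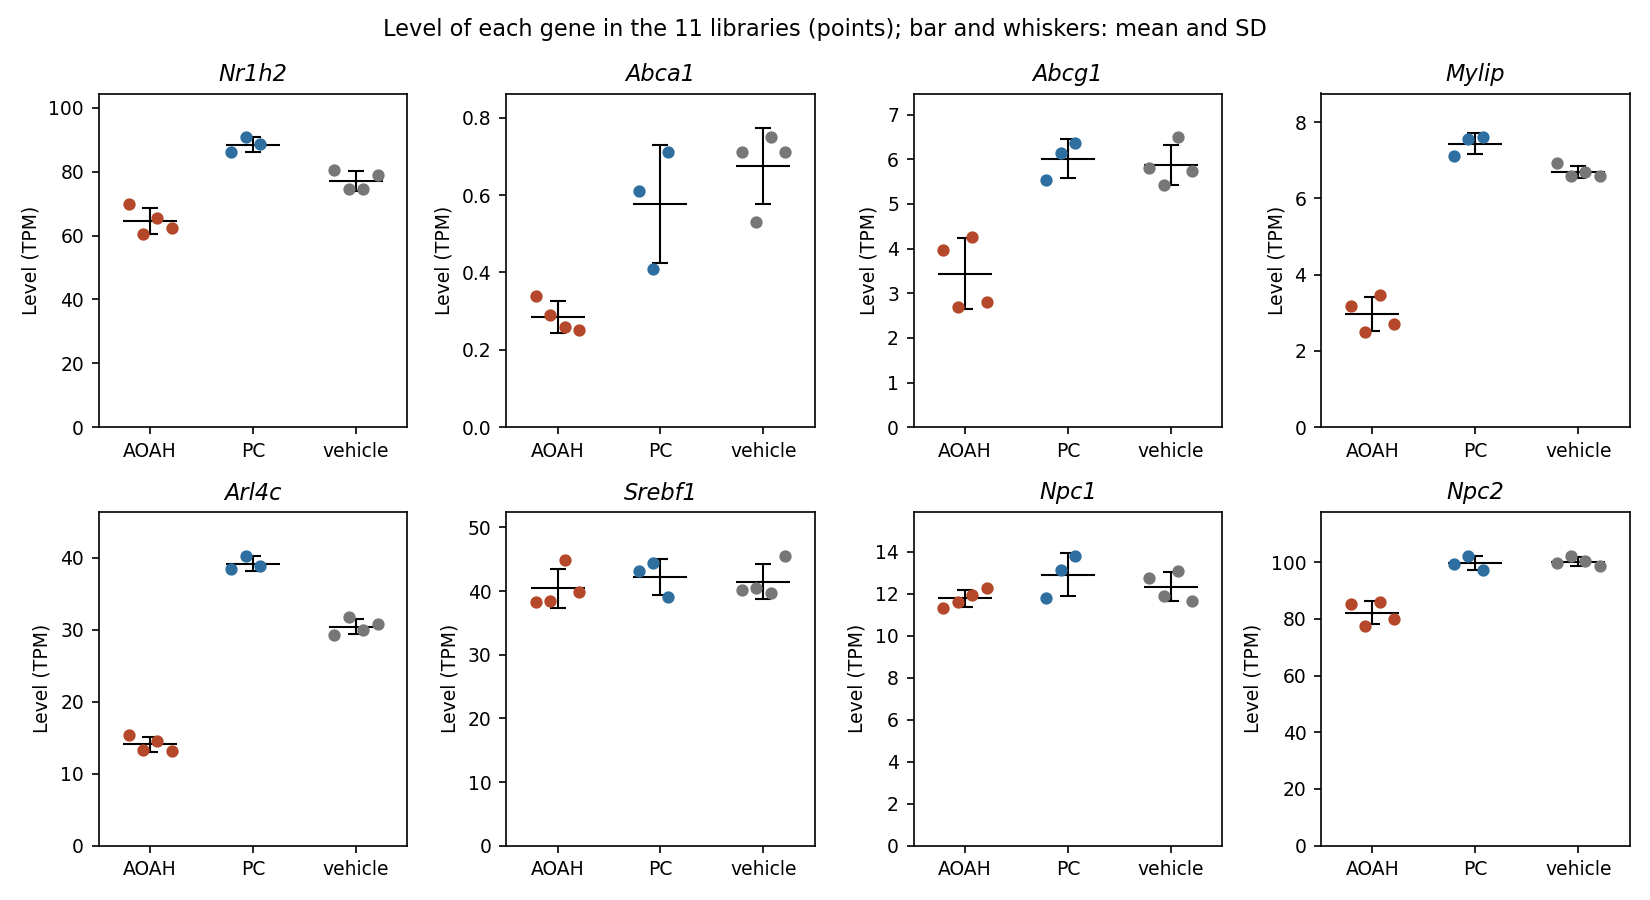
Level of each of the 8 genes in every library, in TPM with an axis of its own per gene that starts at 0. Groups run from AOAH through PC to vehicle, points are libraries and bars are the mean with its SD. All AOAH points lie under all vehicle points for Nr1h2, Abca1, Abcg1, Mylip, Arl4c and Npc2. The share of all genes with such a separation was not counted.

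Against vehicle, AOAH was tested in 11561 genes that averaged 1 TPM or more, of which 12.1% were lower and 13.1% higher. Among the members, 7 passed that filter, 5 of them were lower and 0 higher. Their median change was -0.29 on the log2 scale, beside 0.01 over all genes tested. Abca1 stayed under the filter.

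The receptor itself fell by a small amount. Nr1h2 stood at 69.8, 60.6, 65.5 and 62.5 TPM in AOAH libraries 1 to 4, against 80.5, 74.4, 74.6 and 78.9 TPM in vehicle libraries 1 to 4. Every AOAH library was below every vehicle library. The ratio of means was 0.838 and the log2 change -0.25 ± 0.05 (SE, adjusted p = 0.00569, limma). The T cell genes Cd8a and Cd8b1 changed by -0.17 and -0.27. Over the 6 T cell genes checked, log2 changes ran from -0.27 to -0.05, and 5 passed as lower. Cd3e did not pass (-0.05, adjusted p = 0.196, limma). The part of these genes in the result was not tested. Nr1h3, which encodes LXRα, was between 0.07 and 1.69 TPM in AOAH libraries and between 0.03 and 1.02 TPM in vehicle libraries. Its mean was under the filter, so it was not tested.

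Both sterol exporters were lower with AOAH. Abcg1, a transporter that loads cholesterol onto high-density lipoprotein, had 3.98, 2.70, 4.26 and 2.81 TPM in AOAH libraries, against 5.81, 5.43, 6.50 and 5.73 TPM in vehicle libraries. The groups did not overlap, and AOAH libraries 2 and 4 were the lowest. The ratio of means was 0.586 and the log2 change -0.65 ± 0.13 (SE, adjusted p = 0.00605, limma). Abca1, which exports cholesterol and phospholipid to apolipoprotein A-I, was near the floor in TPM, at 0.34, 0.29, 0.26 and 0.25 TPM in AOAH libraries, against 0.71, 0.53, 0.75 and 0.71 TPM in vehicle libraries. Again the groups did not overlap, with a ratio of means of 0.422. Tested with no filter among 23325 genes, of which 5.03% were lower, its log2 change was -0.38 ± 0.08 (SE, adjusted p = 0.0179, limma), a scale that understates a change at this level. That call did not hold in a fit blocked by batch (adjusted p = 0.0888), without AOAH library 4 (adjusted p = 0.0571) or without vehicle library 4 (adjusted p = 0.0506).

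Mylip and Arl4c showed the largest changes among the members that passed the filter. Mylip, also called Idol, encodes a ubiquitin ligase that marks lipoprotein receptors for breakdown. It stood at 3.19, 2.50, 3.47 and 2.71 TPM in AOAH libraries, against 6.93, 6.58, 6.70 and 6.60 TPM in vehicle libraries. The groups lay well apart, with a ratio of means of 0.443 and a log2 change of -0.96 ± 0.09 (SE, adjusted p = 1.21e-04, limma). Arl4c encodes a small GTP-binding protein known as an LXR target with a part in cholesterol transport. It stood at 15.4, 13.3, 14.6 and 13.2 TPM in AOAH libraries, against 29.3, 31.8, 30.0 and 30.8 TPM in vehicle libraries. Those groups did not overlap either, with a ratio of means of 0.463 and a log2 change of -1.06 ± 0.06 (SE, adjusted p = 1.66e-05, limma).

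Srebf1, an LXR target that encodes the lipogenic factor SREBP1, did not pass the test with AOAH. It stood at 38.3, 38.5, 44.9 and 39.9 TPM in AOAH libraries, against 40.2, 40.5, 39.7 and 45.6 TPM in vehicle libraries. The groups overlapped, and AOAH 3 and vehicle 4 stood above the other libraries. The log2 change was -0.04 ± 0.06 (SE, adjusted p = 0.70, limma), with a 95% interval from -0.18 to 0.10. In the RefSeq annotation Srebf1 overlaps Rai1, which was at up to 27.6 TPM. The strand setting of the counting is not given in the sources used here, so shared reads cannot be told apart.

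Of the pair of lysosomal proteins that hand cholesterol out of the lysosome, Npc2 passed the test with AOAH and Npc1 did not. Npc2, the soluble carrier, stood at 85.3, 77.6, 85.8 and 79.8 TPM in AOAH libraries, against 99.7, 102, 101 and 98.6 TPM in vehicle libraries. The groups did not overlap, with a ratio of means of 0.819 and a log2 change of -0.29 ± 0.04 (SE, adjusted p = 8.34e-04, limma). Npc1, the membrane protein that receives sterol from Npc2, had 11.3, 11.6, 11.9 and 12.3 TPM in AOAH libraries, against 12.7, 11.9, 13.1 and 11.6 TPM in vehicle libraries. These ranges overlapped, and the log2 change was -0.06 ± 0.05 (SE, adjusted p = 0.457, limma) with a 95% interval from -0.18 to 0.06. Npc1 overlaps Rmc1 in the annotation, at up to 29.1 TPM, with the same limit on shared reads.

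**Figure D2:**
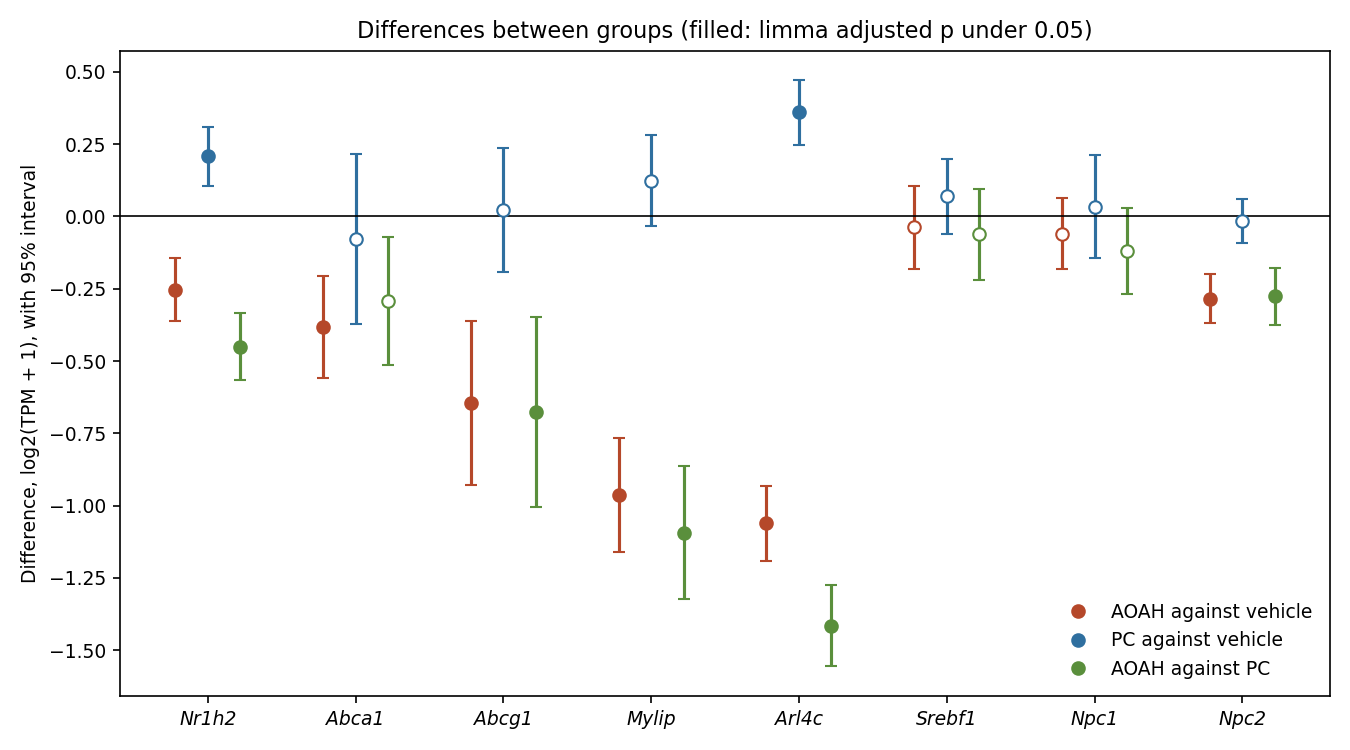
Log2 change of each gene on the log2(TPM + 1) scale in the 3 comparisons, with its 95% interval. Filled points passed the adjusted p threshold of 0.05, and Abca1 comes from the fit with no filter. Arl4c lies at -1.06 for AOAH and at 0.36 for PC, both against vehicle.

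The authors' deposited table, made with DESeq2, gave the same direction for the 6 lower genes. There, 6 of the 8 members were lower with AOAH and 0 higher at an adjusted p under 0.05, and of its genes with an adjusted p 8.68% were lower and 8.45% higher. Abca1 had a log2 fold change of -1.26 in the authors' deposited table (SE 0.28, adjusted p = 1.19e-04, DESeq2). Its base mean there, a mean of size-factor scaled counts, was 89.7, although it was under 1 TPM. Mylip was at -1.19, Arl4c at -1.12 and Abcg1 at -0.80 in the authors' deposited table, all past its threshold. Both analyses rest on the same libraries.

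Against vehicle 1 to 3, the libraries that the labels list for this comparison, PC was tested in 11628 genes, of which 8.27% were higher and 11.2% lower. Of the 7 members tested, 2 were higher and 0 lower. Their median log2 change was 0.07, beside -0.01 over all genes.

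Arl4c showed the largest change with PC. It stood at 38.5, 40.3 and 38.9 TPM in PC libraries 1 to 3, against 29.3, 31.8 and 30.0 TPM in vehicle libraries 1 to 3. No PC library overlapped a vehicle library, with a ratio of means of 1.29 and a log2 change of 0.36 ± 0.05 (SE, adjusted p = 0.00345, limma). Nr1h2 stood at 86.1, 90.9 and 88.6 TPM in PC libraries, against 80.5, 74.4 and 74.6 TPM in vehicle libraries 1 to 3. The groups did not overlap, with a ratio of means of 1.16 and a log2 change of 0.21 ± 0.04 (SE, adjusted p = 0.0176, limma). This call did not hold in a fit blocked by batch (adjusted p = 0.0558), with no filter, or without PC 2 (adjusted p = 0.0616), PC 3 (adjusted p = 0.0572) or vehicle 3 (adjusted p = 0.0615). In the authors' deposited table the same pair were higher, Arl4c at 0.38 (adjusted p = 3.76e-06, DESeq2) and Nr1h2 at 0.22 (adjusted p = 0.0345, DESeq2), and 0 members were lower, where 5.74% of its genes were higher and 7.65% lower.

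The exporters did not pass the test with PC. Abcg1 had 5.53, 6.15 and 6.37 TPM in PC libraries, against 5.81, 5.43 and 6.50 TPM in vehicle libraries 1 to 3, with overlapping ranges and a log2 change of 0.02 (adjusted p = 0.895, limma). Abca1 had 0.61, 0.41 and 0.71 TPM in PC libraries, against 0.71, 0.53 and 0.75 TPM in vehicle libraries 1 to 3. The PC library was the lower in each of the 3 batches, but the ranges overlapped and the log2 change with no filter was -0.08 ± 0.12 (SE, adjusted p = 0.744, limma). Mylip had 7.11, 7.57 and 7.61 TPM in PC libraries, against 6.93, 6.58 and 6.70 TPM in vehicle libraries 1 to 3. Its groups did not overlap, yet the log2 change of 0.12 ± 0.07 did not pass (SE, adjusted p = 0.245, limma). Srebf1 had 43.1, 44.5 and 39.0 TPM in PC libraries, against 40.2, 40.5 and 39.7 TPM in vehicle libraries 1 to 3, and PC 3 lay below all of them. Its log2 change was 0.07 (adjusted p = 0.432, limma). Npc1 had 11.8, 13.1 and 13.8 TPM in PC libraries, against 12.7, 11.9 and 13.1 TPM in vehicle libraries 1 to 3, and Npc2 had 99.3, 102 and 97.3 TPM in PC libraries, against 99.7, 102 and 101 TPM in vehicle libraries 1 to 3. Both overlapped, with log2 changes of 0.03 for Npc1 and -0.02 for Npc2 and adjusted p of 0.798 and 0.764 by limma.

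The comparison of AOAH with PC tests the difference between the treatments directly. Of 11596 genes, 21.5% were lower with AOAH than with PC and 24.3% higher, and 5 of the 7 tested members were lower and 0 higher. Arl4c differed most, with a ratio of means of AOAH over PC of 0.36 and a log2 difference of -1.41 ± 0.06 (SE, adjusted p = 3.15e-06, limma). Mylip differed by -1.09 ± 0.10 (SE, adjusted p = 8.14e-05, limma), Abcg1 by -0.68 ± 0.14 (SE, adjusted p = 0.00555, limma) and Nr1h2 by -0.45 ± 0.05 (SE, adjusted p = 2.34e-04, limma). Npc2 differed by -0.28 ± 0.04 (SE, adjusted p = 0.00129, limma). Abca1 had a log2 difference of -0.29 ± 0.09 with no filter and did not pass (SE, adjusted p = 0.0753, limma), although its AOAH libraries all lay below its PC libraries. It did pass in 1 fit over all 11 libraries (adjusted p = 0.0429) and without PC 2 (adjusted p = 0.0418). Srebf1 and Npc1 did not pass, with adjusted p of 0.490 and 0.162.

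Batch numbers in the labels run through every group, with no PC library in batch 4, so each treated library could be set against the vehicle library of its batch. With AOAH, Nr1h2, Abca1, Abcg1, Mylip, Arl4c and Npc2 were lower in 4 of 4 batches. For these genes every AOAH library lay below every vehicle library, which fixes that direction, so the batches add no separate evidence. The share of all genes with 1 direction in every batch was not counted for either treatment, so how unusual this is cannot be told. The within-batch log2 difference of Arl4c ran from -1.20 to -0.89 and that of Mylip from -1.11 to -0.78. Abcg1 varied more, from -0.82 to -0.45. With PC, Arl4c was higher in 3 of 3 batches, by 0.33 to 0.38, Nr1h2 by 0.09 to 0.28 and Mylip by 0.03 to 0.18. The PC and vehicle groups of these genes did not overlap either, which again fixes the direction. Srebf1 was higher with AOAH in 1 of 4 batches and lower in 3.

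**Figure D3:**
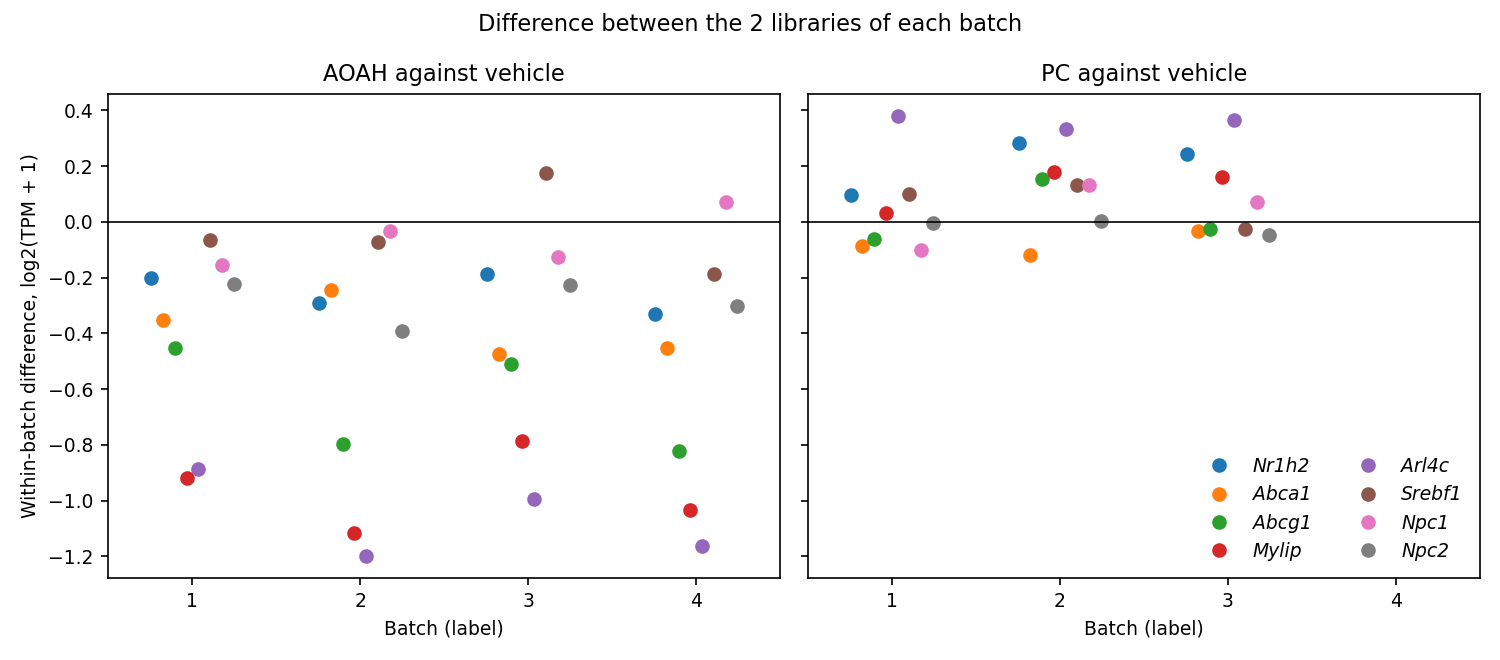
Log2 difference from the vehicle library of the same batch on the log2(TPM + 1) scale, for AOAH in 4 batches and PC in 3. Points are the 8 genes, set slightly apart within a batch. With AOAH all points of Arl4c lie between -1.20 and -0.89, and with PC between 0.33 and 0.38.

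The other genes of the pathway, in 9 lists, changed in both directions. Over all genes tested, 13.1% were higher and 12.1% lower with AOAH, and 8.27% were higher and 11.2% lower with PC. Among 8 tested LXR partners and coregulators, 0 were higher and 1 was lower with AOAH, with a median log2 change of -0.06. The gene was Ncoa3, a coactivator (-0.18, adjusted p = 0.0385, limma), and it did not pass when blocked by batch, with no filter, or without AOAH 1, 2 or 4 or any 1 vehicle library (adjusted p up to 0.0942). With PC, Rxra, which encodes the retinoid X receptor that pairs with LXR, was the 1 of 8 that rose, at 12.4 ± 0.123 TPM with PC and 8.36 ± 0.128 TPM in vehicle 1 to 3 (SD, n = 3 each). Its log2 change was 0.52 (adjusted p = 0.00182, limma), none of the 8 fell, and the median of this list with PC was -0.04. With AOAH, Rxra had a log2 change of 0.09 (adjusted p = 0.357, limma).

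The list of other LXR targets had 6 tested genes with AOAH, 0 higher and 2 lower, beside 13.1% higher and 12.1% lower over all genes. Their median log2 change was -0.05. The 4 not called, Lpcat3, Fasn, Scd2 and Apoe, had log2 changes of 0.13, 0.12, 0.02 and -0.11. Smpdl3a, a secreted phosphodiesterase known as an LXR target, fell to 5.20 ± 0.275 TPM with AOAH, against 10.2 ± 0.905 TPM with vehicle (SD, n = 4 each). Its log2 change was -0.86 (adjusted p = 7.83e-05, limma). Abca7, a relative of Abca1 whose control by LXR is not settled, fell to 6.99 ± 0.332 TPM with AOAH, against 10.4 ± 0.301 TPM with vehicle (SD, n = 4 each), a log2 change of -0.51 (adjusted p = 2.73e-04, limma). With PC 7 of this list were tested, 1 higher and 1 lower, beside 8.27% higher and 11.2% lower over all genes. The median with PC was 0.04. Abca7 rose by 0.34 (adjusted p = 0.0209, limma) and Scd2, a fatty acid desaturase, fell by 0.71 on the log2 scale (adjusted p = 0.00174, limma). Abca7 did not pass with PC when blocked by batch, with no filter, or without PC 2, PC 3, vehicle 1 or vehicle 3 (adjusted p up to 0.0742). Without vehicle 2 the lower count with PC was 2, and without AOAH 4 the higher count with AOAH was 1.

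Genes for proteins that carry sterol between membranes were called in both directions with AOAH. Of 18 tested, 3 were higher and 4 lower, beside 13.1% higher and 12.1% lower over all genes, and their median log2 change was -0.02. Gramd1a and Gramd1b encode Aster proteins, which move cholesterol from the plasma membrane to the endoplasmic reticulum. Gramd1a averaged 46.6 ± 2.04 TPM in AOAH libraries and 70.0 ± 2.32 TPM in vehicle libraries (SD, n = 4 each), a log2 change of -0.58 (adjusted p = 3.90e-05, limma). Gramd1b went the other way, at 71.6 ± 3.20 TPM in AOAH libraries and 54.2 ± 5.35 TPM in vehicle libraries (SD, n = 4 each), a log2 change of 0.40 (adjusted p = 0.00307, limma). Stard4, a soluble sterol carrier, and Tmem97, a membrane protein that binds Npc1, also rose with AOAH, by 0.41 and 0.26. Scp2, Lipa and Scarb2 fell with AOAH, by 0.31, 0.22 and 0.19 on the log2 scale, and Lipa encodes the lysosomal lipase that frees cholesterol from its esters. Lipa did not pass when blocked by batch (adjusted p = 0.0588).

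With PC the median log2 change of the 18 transport genes was 0.08, and 5 passed as higher and 1 as lower, where 8.27% of all genes were higher and 11.2% lower. Leaving out 1 library gave 3 or 4 higher, and the lower count was 0 without PC 2, PC 3 or any 1 vehicle library. Gramd1a averaged 98.2 ± 3.02 TPM with PC and 69.4 ± 2.37 TPM in vehicle 1 to 3 (SD, n = 3 each), a log2 change of 0.50 (adjusted p = 8.79e-04, limma). Gramd1b rose by 0.45 (adjusted p = 0.0102, limma), so this gene was higher under both treatments, and the direct comparison of AOAH with PC did not pass (log2 difference -0.07, adjusted p = 0.181, limma). Osbpl9, Stard3 and Scarb2 also rose with PC, and Tmem97 fell by 0.20 on the log2 scale. The call of Stard3 was lost with no filter and without PC 1, PC 3 or any 1 vehicle library (adjusted p up to 0.0800). That of Scarb2 was lost when blocked by batch, with no filter and without any 1 library (adjusted p up to 0.0902), and that of Tmem97 with no filter, with TMM scaling and without PC 2, PC 3 or any 1 vehicle library (adjusted p up to 0.0825). Osbpl9 passed in all 15 alternatives. Both comparisons use the vehicle libraries. Of the 18, 2 were higher and 8 lower with AOAH than with PC, beside 24.3% higher and 21.5% lower over all genes. Gramd1a differed most, by -1.06 (adjusted p = 2.54e-06, limma).

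The substrates of Mylip are lipoprotein receptors. Of 4 tested genes of lipoprotein uptake, 2 were higher and 0 lower with AOAH, with a median log2 change of 0.15. Over all genes 13.1% were higher and 12.1% lower with AOAH, and 8.27% were higher and 11.2% lower with PC. Lrp8, a receptor for apolipoprotein E that Mylip is known to degrade, averaged 13.3 ± 1.09 TPM in AOAH libraries and 9.36 ± 0.673 TPM in vehicle libraries (SD, n = 4 each), a log2 change of 0.46 (adjusted p = 0.00216, limma). Scarb1, the receptor for high-density lipoprotein, rose by 0.25 with AOAH (adjusted p = 0.00539, limma) and fell by 0.31 on the log2 scale with PC (adjusted p = 0.00407, limma), the 1 lower gene of that list with PC, where 0 were higher and the median was -0.03. Degradation by Mylip acts on protein, which was not measured.

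Sterol synthesis genes were called in both directions. With AOAH, 3 of 20 were higher and 2 lower, beside 13.1% higher and 12.1% lower over all genes. Their median log2 change with AOAH was 0.00. With PC 1 was higher and 2 lower, beside 8.27% higher and 11.2% lower over all genes, and the median was 0.02. Without AOAH 1 the higher count with AOAH was 5, and the lower count was 1 or 0 in every fit that left out a library. With PC the lower count was 1 when blocked by batch, with no filter and without any 1 PC library, vehicle 1 or vehicle 3. Idi1, the isomerase of isoprenoid units, stood at 160.4 ± 5.18 TPM in AOAH, 126.9 ± 2.63 TPM in PC and 138.8 ± 5.47 TPM in vehicle libraries (SD, n = 4, 3 and 4). It passed as higher with AOAH and as lower with PC, and the second of these did not pass when blocked by batch, with no filter, or without any 1 PC library, vehicle 1 or vehicle 3 (adjusted p up to 0.0844). The lower pair with AOAH were Mvd and Ebp, enzymes of early and late steps, and each lost its call under many alternatives (adjusted p up to 0.0849 for Mvd and 0.105 for Ebp), among them without AOAH 2 or 3 or without vehicle 2, 3 or 4. Cyp51, which demethylates lanosterol, was higher under both treatments, at 50.3 ± 1.59 TPM in AOAH, 54.6 ± 2.78 TPM in PC and 43.2 ± 1.75 TPM in vehicle libraries (SD, n = 4, 3 and 4). In the SREBP processing list of 7, 0 were higher and 0 lower with AOAH, with a median of 0.02. With PC, 1 was higher and 0 lower, with a median of 0.11: Spring1, whose product is needed for SREBP cleavage, and it did not pass when blocked by batch, with no filter or without any 1 library (adjusted p up to 0.120). With vehicle 4 included 3 genes of this list were higher with PC. With AOAH, leaving out library AOAH 1 gave 1 higher gene and leaving out AOAH 3 gave 1 lower gene.

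The lipogenic targets of SREBP1 were 10 tested genes with AOAH, 0 higher and 1 lower, with a median log2 change of 0.12. Over all genes 13.1% were higher and 12.1% lower with AOAH, and 8.27% were higher and 11.2% lower with PC. The lower gene with AOAH was Acss2, which makes acetyl-CoA from acetate, with a log2 change of -0.54 (adjusted p = 0.00301, limma). With PC, 0 of 9 were higher and 2 lower, Scd2 and Acaca, with a median of -0.14, and Acaca did not pass when blocked by batch, with no filter, in 1 fit over all 11 libraries, with vehicle 4 included, or without PC 1, PC 3, vehicle 1 or vehicle 3 (adjusted p up to 0.0973). Without vehicle 2 the lower count with PC was 5. With AOAH the lower count was 2 without AOAH 4, and the higher count was 1 without vehicle 3. Tested directly, 8 of 10 were higher with AOAH than with PC and 1 lower, where 24.3% of all genes were higher and 21.5% lower. The median log2 difference was 0.29 beside 0.00 over all genes, and 5 were higher when blocked by batch. Scd2 averaged 17.7 ± 1.43 TPM with AOAH and 10.5 ± 0.625 TPM with PC (SD, n = 4 and 3), and Fasn, the fatty acid synthase, averaged 118 ± 4.60 TPM with AOAH and 95.7 ± 3.91 TPM with PC. Srebf1 itself had the adjusted p of 0.490 in that comparison given above.

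Genes that make or inactivate oxysterols numbered 4 tested with AOAH, 1 higher and 1 lower, with a median log2 change of 0.13. Over all genes 13.1% were higher and 12.1% lower with AOAH, and 8.27% were higher and 11.2% lower with PC. The lower gene of this list with AOAH was Ebp, a sterol isomerase, which fell by 0.13 on the log2 scale, with the limits given above. With PC, 0 of 3 were higher or lower, with a median of 0.00. Of 5 genes of sterol esterification, 0 were higher or lower under either treatment, with medians of 0.06 with AOAH and -0.06 with PC.

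**Figure D4:**
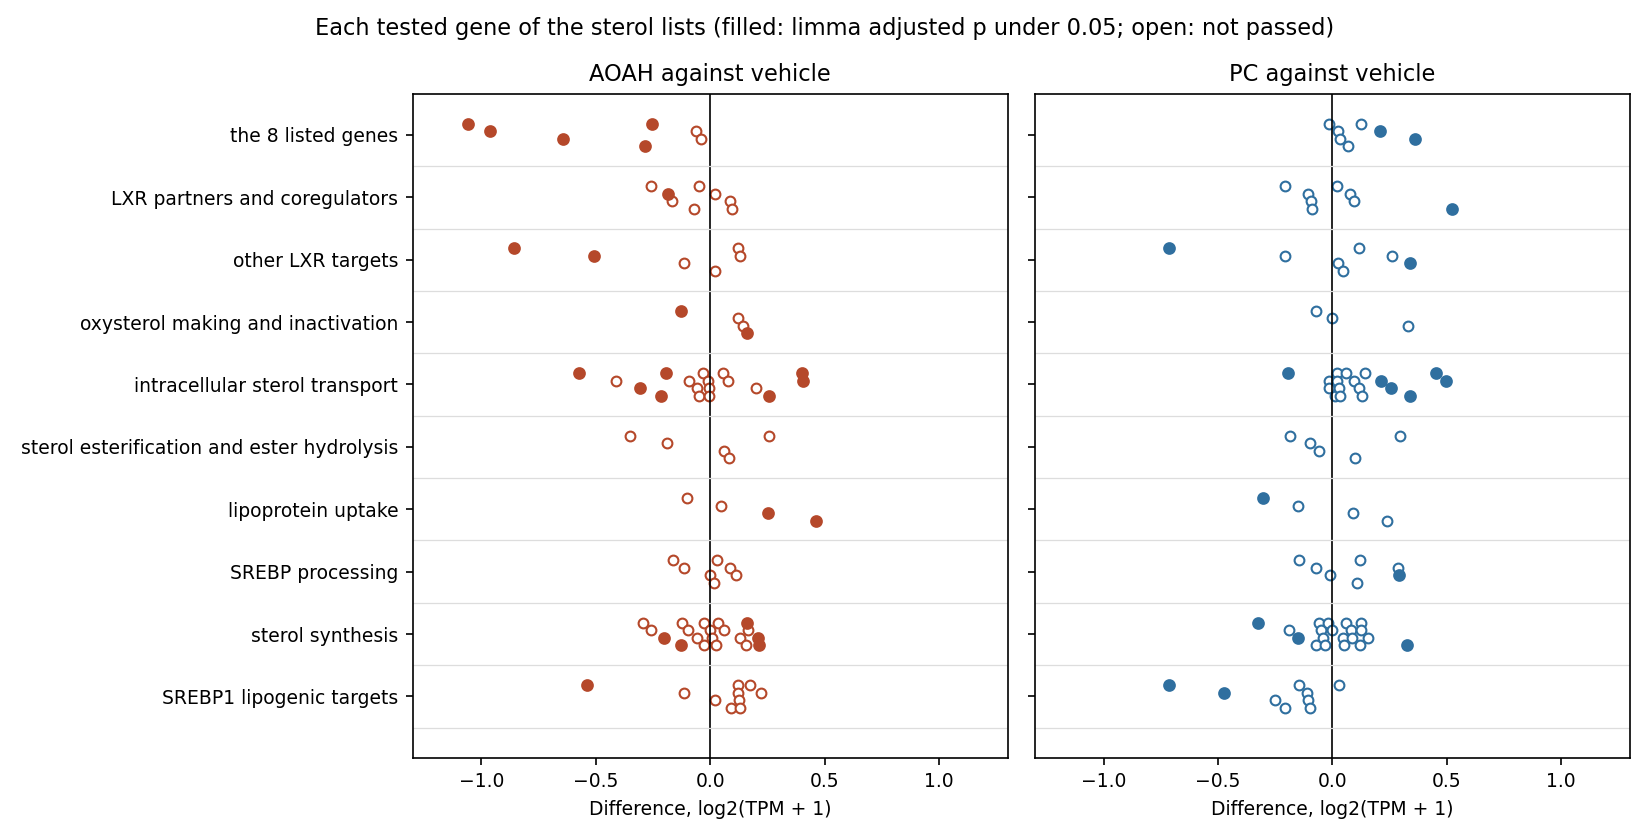
Log2 change of every tested gene of the member set and the 9 pathway lists, for AOAH and for PC against vehicle, on the log2(TPM + 1) scale. Each point is a gene, filled where it passed the adjusted p threshold and open where it did not, with a small vertical spread for legibility. Abca1 is not drawn, as it was under the filter. The median of the listed genes tested is -0.29 with AOAH, and with AOAH the medians of the other lists lie between -0.06 and 0.15.

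The labelled cell type was checked against markers. The summed level of a list of T cell genes was 1273 to 1312 TPM with AOAH, 1652 to 1703 TPM with PC and 1467 to 1507 TPM with vehicle, so it was ordered as Arl4c was. With AOAH 5 of the 6 genes, Cd3d, Cd3g, Cd2, Cd8a and Cd8b1, were lower and 0 higher, with log2 changes over the 6 from -0.27 to -0.05, and with PC all 6 were higher, by 0.14 to 0.24. With AOAH the changes of Arl4c (-1.06), Mylip (-0.96) and Abcg1 (-0.65) were larger than these. Those of Npc2 (-0.29) and Nr1h2 (-0.25) were of about that size. With PC the change of Arl4c (0.36) was larger and that of Nr1h2 (0.21) of about that size. Why these sizes differ was not tested. Of 10 macrophage and monocyte genes, 9 were in the table, and nearly all of their sum of 242 to 272 TPM with AOAH, 221.8 to 222.1 TPM with PC and 256 to 267 TPM with vehicle was Ly6c2, which activated CD8+ T cells also express. Adgre1 was at most 0.09 TPM and Csf1r at most 0.10 TPM in any library, and C1qa was at 0 in every AOAH and vehicle library. Lyz2 lay between 0.05 and 0.79 TPM with AOAH, 0.89 and 2.55 TPM with PC, and 0.57 and 1.72 TPM with vehicle. A list of 8 B cell genes summed to 131 to 140.2 TPM with AOAH, 167 to 173 TPM with PC and 151 to 157 TPM with vehicle, most of it Ighm. The nuclear RNA Malat1 was at 96.6 to 136 TPM with AOAH, 234 to 311 TPM with PC and 190 to 194 TPM with vehicle. The sum of the B cell list was ordered by group as Arl4c was through Ighm alone: Cd79b, the other B cell gene tested, had 6.57 to 8.29 TPM with AOAH, 5.42 to 7.03 TPM with PC and 7.31 to 9.20 TPM with vehicle, with log2 changes against vehicle of -0.10 and -0.33 that did not pass. A list of 3 NK cell genes summed to 81.1 to 87.6 TPM with AOAH, 78.8 to 84.3 TPM with PC and 97.0 to 101.5 TPM with vehicle. Nearly all of it was Eomes, also a factor of activated CD8+ T cells, which was lower with AOAH (-0.22, adjusted p = 0.00127, limma) and with PC (-0.29, adjusted p = 0.00308, limma), while Ncr1 was at most 0.24 TPM. Of 3 CD4 T cell genes, Cd40lg was higher with PC (0.65, adjusted p = 0.0238, limma), at 2.17 to 3.12 TPM with PC against 1.05 to 1.67 TPM with vehicle, and Cd4 was at most 0.42 TPM. The 1 dendritic cell gene tested did not pass in any comparison, and no red cell gene reached the filter. Malat1 was ordered by group as Arl4c was. These lists moved beside the member results, and their part in the member results was not tested.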

How the data were processed

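RNA from 11 libraries was enriched for polyadenylated transcripts and sequenced as read pairs, per the labels' protocols. The authors quantified genes with RSEM, per the submitters' processing notes, and deposited log2 values of TPM + 1. The notes name the build mm39. Not given in the sources used here are the aligner, the annotation, the strand setting, versions and whether molecular identifiers were used. TPM keeps no depth, so depth per library is unknown. TPM sums were 998406 to 998655 per library. The authors' deposited tables, made with DESeq2, give the base mean (a signal of size-factor scaled counts), log2 fold changes with standard errors, a Wald score, p-values and adjusted p-values.

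Tests used limma 3.58.1 in R 4.3.3 with trend and robust variance on log2(TPM + 1), with a pseudocount of 1 and genes averaging at least 1 TPM over the libraries compared, two-sided, with Benjamini-Hochberg adjustment at 0.05. AOAH was compared with 4 vehicle libraries, PC with vehicle 1 to 3 and AOAH with PC. Members were all named, and up to 4 list genes per list were named by the lowest p among those called. Gramd1b, Lipa and Scarb2 with AOAH, and Scarb2 and Tmem97 with PC, were named after their values were seen. Members and lists were chosen with earlier results of these data known. No label gives separate animals or cultures for the libraries of a group, so the spread behind the p-values is that of these libraries and may be technical. Pairing came from the batch labels. Deviations from group means correlated at -0.0033 on average over 10 same-batch pairs (-0.0794 to 0.118) and at 0.0011 over 30 other pairs (-0.125 to 0.140). Promoter windows are of GRCm38.p6, a build other than that of the files, and were used for sequence alone. Alternatives were other pseudocounts of 0.1 and 5, no filter, a filter of 5 TPM, TMM and quantile scaling, batch as a block, 1 fit over all libraries, vehicle 4 included for PC, and each library left out. The extra alternatives for Abca1 were chosen after seeing the data. The authors' deposited receptor repertoire table was not used here. A few genes counted in the lists are not reported here by name.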

Additional observations from a re-analysis of the deposited data

Results flagged for a closer look

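Srebf1 in vehicle library 4 stood at 45.6 TPM, apart from 40.2, 40.5 and 39.7 TPM in the other vehicle libraries. Its gap to the nearest of them was 0.864 of the whole range of the group, above Dixon's critical value for groups of 4. It was the only value so found among 16 sets of 4 libraries (8 genes in AOAH and in vehicle), and chance gives about 5% of such sets. Without that library the log2 change of Srebf1 with AOAH was 0.01 (adjusted p = 0.949, limma). The library is not in the comparison of PC with vehicle.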

How the results depend on the processing

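With AOAH against vehicle, 5 members were lower under every alternative run but the following. With a filter of 5 TPM the count was 3, since Abcg1 and Mylip were then not tested, and with no filter it was 6, with Abca1. Leaving out each library gave 5 in every case. With AOAH against PC the count of lower members was 3 with a filter of 5 TPM, and 5 in each fit that left out a library. With PC against vehicle the 2 higher members became 1 with no filter and 1 with the replicate block, where Nr1h2 missed the threshold, and 1 to 2 over the fits that left out a library. Among the members the block changed no other call than those of Nr1h2 with PC and of Abca1 with AOAH, and the cause was not tested. Signs turned only for values that did not pass in either fit: Srebf1 with AOAH ran from -0.0891 to 0.0068 over the fits that left out a library, the last being without vehicle 4. With PC those fits ran from -0.0284 to 0.0827 for Abcg1, below 0 without PC 3 (-0.0139) or vehicle 2. They ran from -0.0138 to 0.0925 for Npc1, below 0 without PC 3 or vehicle 2 (-0.0031), and from -0.0356 to 4e-04 for Npc2, above 0 without PC 3. Npc2 was also 0.0016 with TMM and 0.0172 with quantile scaling. Of 828 counts of called list genes under alternatives, 715 were within 1.5 times the reported count and 113 were not. The number of libraries, the unknown depth and the low level of Abca1 limit the precision of all values.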

Other observations

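The genes whose levels tracked those of a member most closely over the 11 libraries were searched among 8595 genes of at least 5 TPM. For Arl4c they were Arhgap45 (Pearson r 0.997, Spearman rho 0.973) and Tgtp1 (r 0.997, rho 0.991). For Mylip they were Gbp8 (r 0.998, rho 0.936) and Ifi206 (r 0.998, rho 0.973), for Npc2 they were Zbp1 (r 0.988, rho 0.864) and Ms4a6b (r 0.986, rho 0.90), and for Nr1h2 they were Laptm4a (r 0.984, rho 0.964) and Smim14 (r 0.98, rho 0.955). For Abcg1 they were H2-Q6 (r 0.985, rho 0.891) and Smarca2 (r 0.978, rho 0.882). The libraries fall into 3 treatment groups, which these values share, so each r describes group levels and has no p. Tgtp1, Gbp8, Ifi206, Ms4a6b and H2-Q6 belong to families of near-identical genes, so their counts are uncertain.

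AOAH libraries 2 and 4 both lay below AOAH 1 and 3 in 5 of the 7 tested members, namely Nr1h2, Abcg1, Mylip, Arl4c and Npc2. This order, noticed after the values were seen, was found in 18.4% of 11596 genes, and the opposite order in 15.3% of genes and in 0 of the 7 members. No cause was tested.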
